A study of Mus musculus with 6 samples.

Results

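The major histocompatibility region of the mouse was read in contact maps of embryonic stem (ES) cells that carry either wild-type CTCF or CTCF without zinc finger 8. Its members are the 139 protein-coding genes of RefSeq (of 20661 on the autosomes) whose lower coordinate lies on chromosome 17 between 33.9 and 36.5 Mb of mm10, with Pou5f1 left out. Each gene was read at the 50 kb bin that holds this coordinate, and the 52 bins of the window were also read as pairs. The 6 libraries came from in-situ Hi-C, which cuts crosslinked chromatin, ligates DNA ends that lie close to each other and counts the joined pairs. Both groups are ES cells of strain 129, and no treatment or time is given for either. The 3 wild-type libraries (WT replicates 1 to 3) are labelled wild type, while the design text of the series speaks of GFP-CTCF. The labels leave unsettled whether the WT cells also express the GFP-tagged protein. The other 3 libraries (Del8 replicates 1 to 3) express a CTCF protein that lacks zinc finger 8, and the design text calls the replicates biological. The number of clones per line is not given in the labels. The deletion cannot be seen in counts of 50 kb bins, and expression was not measured in these libraries.

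The region holds the genes by which cells show peptides to T cells. Class I molecules carry peptides made inside the cell to the surface, class II molecules carry peptides from engulfed material, and the class III stretch between them holds complement, tumour necrosis factor and many genes with no part in immunity. CTCF binds DNA through its zinc fingers and, together with the cohesin ring, which extrudes chromatin loops, marks the borders across which contact is reduced. In ES cells, the class I and class II genes are known to be at low activity, while housekeeping genes stand between them.

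The window is dense in genes. It held 2.67 member starts per bin, against 0.604 starts of protein-coding genes per usable bin of the autosomes, and up to 8 starts in 1 bin. Genes of the same bin share the same value, so the 45 scored bins with a member, not the genes, are the units counted below. For 8 of 119 members with a RefSeq promoter the transcription start lay in another bin than the lower coordinate, among them H2-K1 and Tnf. H2-K1 starts at 34000347 and Tnf at 35202007, each in the bin that follows the one used here.

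The libraries held 24038030 to 36233407 contacts in WT and 38088173 to 66266759 in Del8, and 965055 to 2614327 on chromosome 17. WT replicates 1 and 2 stood apart, with few contacts in many bins, and a bin was used only where all 6 libraries covered it. That left 27821 of 47875 autosomal bins (58.1%) and 51 of the 52 window bins. The bin left out (35450001 to 35500000) holds H2-Q10, a class I gene of the Q group. Its coverage relative to well-covered bins was 0.145 in WT replicate 1, 0.201 in WT replicate 2 and 0.586 in WT replicate 3, against 0.605, 0.596 and 0.605 in the Del8 libraries. The class I genes are a family of close copies. How the authors treated read pairs with several matches is not given in the sources used here, and its part in these values was not tested.

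The largest change in the window was the loss of a contact border at the genes Mrps18b and Ppp1r10. Mrps18b codes for a protein of the mitochondrial ribosome, and Ppp1r10 for a regulatory subunit of protein phosphatase in the nucleus. They are read in opposite directions from starts 756 bases apart. Their promoters are shown because the border bin of the WT maps (35900001 to 35950000) holds both. Cdsn, of the same gene block, is added as an example with a motif match. Its printed promoter belongs to a further start of the gene, at 35552128. That start lies in the bin after the one read for Cdsn, whose first start is at 35543101. Both bins rose, by 0.29 and 0.28. The sequences are RefSeq's for GRCm38.p6, the build also called mm10, 250 bases up to the start and 5′ to 3′ on the gene's strand. Capitals mark a match to the core of the CTCF motif.
Mrps18b, chr17:35916441-35916690, minus strand: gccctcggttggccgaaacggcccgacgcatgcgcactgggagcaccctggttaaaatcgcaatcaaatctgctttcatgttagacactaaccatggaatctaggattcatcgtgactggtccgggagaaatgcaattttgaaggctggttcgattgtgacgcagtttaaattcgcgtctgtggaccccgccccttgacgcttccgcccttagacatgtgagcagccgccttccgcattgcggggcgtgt
Ppp1r10, chr17:35916946-35917195, plus strand: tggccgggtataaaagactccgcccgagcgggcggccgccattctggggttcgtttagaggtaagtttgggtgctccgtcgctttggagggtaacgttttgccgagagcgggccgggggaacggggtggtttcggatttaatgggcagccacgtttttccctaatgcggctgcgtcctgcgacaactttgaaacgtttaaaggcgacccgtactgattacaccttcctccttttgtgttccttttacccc
Cdsn, chr17:35551878-35552127, plus strand: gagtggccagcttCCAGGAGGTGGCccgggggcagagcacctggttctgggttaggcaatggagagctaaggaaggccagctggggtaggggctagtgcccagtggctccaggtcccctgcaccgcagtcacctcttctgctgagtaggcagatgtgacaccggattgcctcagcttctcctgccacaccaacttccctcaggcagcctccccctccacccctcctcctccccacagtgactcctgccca

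The core of the CTCF motif was searched on both strands in the 300 bases of each promoter in the table (250 before the start and 50 after it). It stood in the promoters of 4 of 119 members (Cdsn, Ddah2, H2-M10.4 and Ly6g6d) and in those of 2.82% of 27025 genes. The promoters of Mrps18b and Ppp1r10 held no match, which says only that its letters are not in these windows. The rest of the border bin was not searched.

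Contact across each bin was measured by the insulation score, which averages the balanced contact between the 500 kb on one side of the bin and the 500 kb on the other, divides it by the chromosome's mean and takes log2. A low score marks a border, and a rise in Del8 means more contact across the bin. At the bin of Mrps18b and Ppp1r10 the 3 WT libraries, in order of replicate, scored -0.93, -0.94 and -0.80. The 3 Del8 libraries scored -0.24, -0.24 and -0.16. The groups stood well apart, and the 3 libraries of each group lay close together. The difference was 0.68 (limma, SE 0.041, adjusted p = 6.27e-07), a 1.60-fold contact on this relative scale. It ranked as rise 28 of the 22083 autosomal bins with a score. With WT replicate 3 as the sole WT library the difference was 0.58, though such a fit holds no spread between WT libraries.

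The rise covered all 10 bins of the stretch between H2-Q10 and the first T gene, here called the middle block (35500001 to 36000000). Differences there ran from 0.28 to 0.68, with a median of 0.45, and no bin's groups overlapped. Among all scored bins, 32.4% were higher and 67.0% had no overlap of the groups, in either direction. Neighbouring bins share most of their squares, so these 10 values are not independent. The bin of Nrm, Ppp1r18, Dhx16, 2310061I04Rik and Atat1 went from -0.78 ± 0.07 to -0.11 ± 0.05 (SD, n = 3 each). Nrm codes for a protein of the inner nuclear membrane, Dhx16 for an RNA helicase of splicing and Atat1 for the enzyme that acetylates alpha-tubulin. Its 6 libraries did not overlap, and the rise of 0.67 (limma, SE 0.040, adjusted p = 5.54e-07) ranked 32 of all scored bins.

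Next to it, the bin of Ier3, Flot1, Tubb5 and Mdc1 had scores of -0.62, -0.57 and -0.49 in WT against 0.03, -0.01 and 0.06 in Del8. Ier3 is an early response gene of stress, Flot1 codes for a membrane scaffold, Tubb5 for a beta-tubulin and Mdc1 for a mediator of the DNA damage response. All WT libraries were below the chromosome's mean there, whereas the Del8 libraries lay about at it. The rise was 0.58 (limma, SE 0.037, adjusted p = 7.94e-07). On the other side of the border, the bin of Abcf1, Prr3 and Gnl1 rose by 0.46. The bin of Vars2, Gtf2h4 and Ddr1, on the same side as that of Ier3 but further from the border, rose by 0.37. Abcf1 codes for a factor of translation initiation, Vars2 for a mitochondrial valyl-tRNA synthetase, Gtf2h4 for a subunit of the transcription factor TFIIH and Ddr1 for a collagen receptor.

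**Figure D1:**
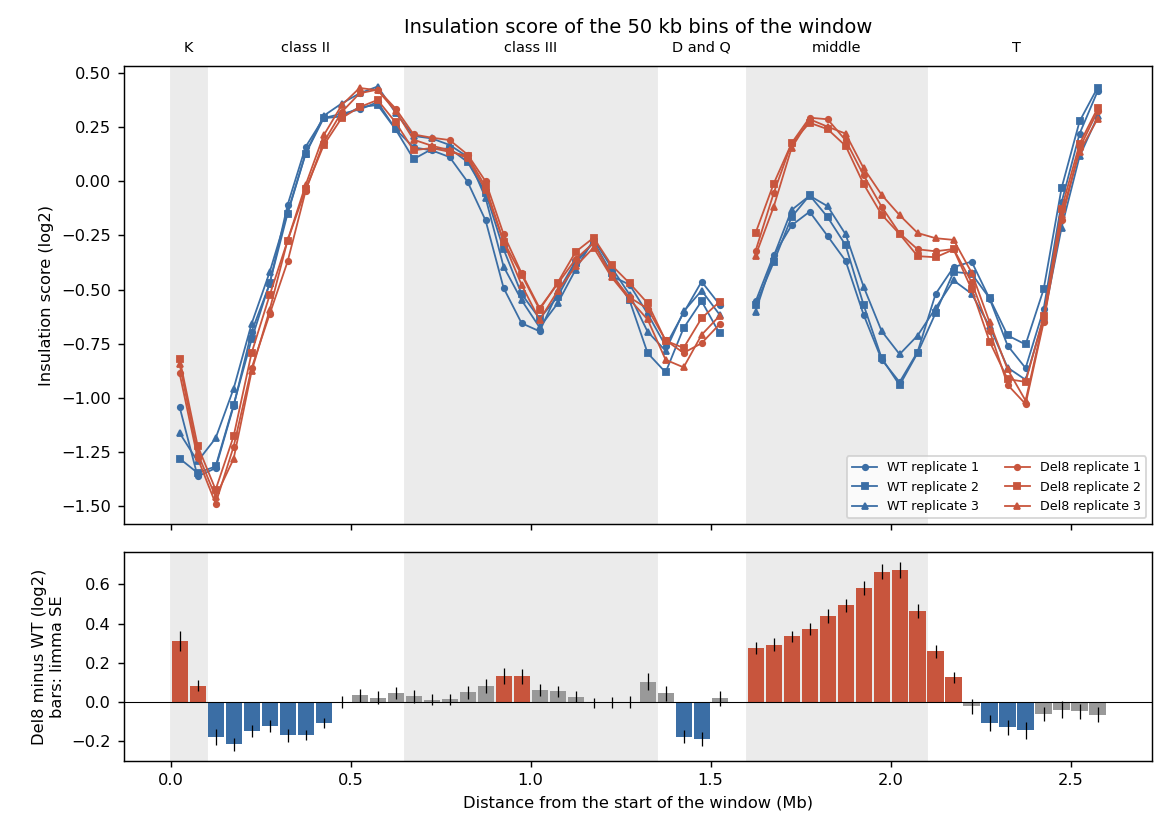
Upper panel, insulation score (log2) of each 50 kb bin against the distance from the start of the window in Mb, 1 line per library (blue, WT; red, Del8), with the gene blocks K, class II, class III, D and Q, middle and T shaded in turn. Lower panel, Del8 minus WT (log2) with the limma SE, red for bins past the threshold and higher in Del8, blue for lower, grey for neither. The 10 bins of the middle block rise by 0.28 to 0.68, and 7 bins of class II fall.

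On the balanced maps, rises and falls over the whole region were about as frequent as elsewhere in the genome. Of the 45 scored bins with a member, 14 (31.1%) were higher in Del8 and 11 (24.4%) lower at an adjusted p under 0.05. Over all 22083 scored bins, 32.4% were higher and 30.3% lower, so these shares lie near the background. The other 20 bins did not pass. The groups did not overlap at 25 of the 45 bins, where 67.0% of all scored bins had no overlap. The median difference of member bins was 0.02, against 0.0014 over all bins, and the range ran from -0.22 to 0.68. Of the 138 genes with a score, 49 lay in bins that rose, 26 in bins that fell and 63 in bins that did not pass. On maps that were not balanced, 16 of the 45 bins were higher and 3 lower. Of all 22083 scored bins, 6353 were higher and 6283 lower there, so falls were rarer among member bins in that setting. When partly lost bins were kept (20 or more contacts in every library), limma called 0 of 46 member bins, with 16 higher and 1 lower at an unadjusted p under 0.05. In that setting limma also called 0 of all 36079 scored bins, with 4705 at an unadjusted p under 0.05. The absence of calls was thus not particular to this region.

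The falls gathered in the class II block (34000001 to 34550000), where 7 of 11 bins were lower in Del8 and none was higher. Of all scored bins, 30.3% were lower. The 7 bins lie side by side and neighbours share most of their squares. They, and the gene lists read from them below, are thus not independent. These falls depended on the maps: without balancing 3 of the 7 calls held (H2-Oa, Tap2 with H2-Ob, and H2-Ab1 with H2-Aa), and with partly lost bins kept all 7 differences were above 0 (0.07 to 0.21, none past the threshold by limma). All 7 held without any single library. The genes of the class II chains, which form the peptide-binding molecule itself, all lay in bins that fell (4 of 4 genes, 2 bins). At the bin of H2-Ab1 and H2-Aa, the beta and alpha chains of the A molecule, the score was 0.16, 0.13 and 0.13 in WT against -0.05, -0.04 and -0.02 in Del8. WT libraries were above the chromosome's mean, and Del8 libraries just below it. The fall was -0.17 (limma, SE 0.027, adjusted p = 0.000251), a 0.888-fold contact across the bin. The neighbouring bin of H2-Eb1 and H2-Eb2 fell by 0.11 on the log2 scale, from 0.29 ± 0.01 to 0.19 ± 0.02 (SD, n = 3 each).

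All 5 peptide editors, which help class II molecules exchange peptides, lay in bins of this same falling run (4 bins, median -0.16). H2-Oa, the alpha chain of the O molecule, which restrains this exchange, had the largest fall among member bins. Its bin scored -1.04, -1.03 and -0.96 in WT against -1.22, -1.18 and -1.28 in Del8. The highest Del8 library was below the lowest WT library, and the mean difference was -0.22 (limma, SE 0.035, adjusted p = 0.000288). The bin of H2-Ob, the beta chain of O, fell from -0.13 ± 0.02 to -0.31 ± 0.06 (SD, n = 3 each), and it also holds Tap2. The bin of H2-DMa, H2-DMb2 and the chromatin reader gene Brd2 fell by 0.15, again with no overlap.

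Genes of antigen processing, which cut peptides and move them into the endoplasmic reticulum, lay on both sides. Psmb9 and Psmb8, subunits of the immunoproteasome, and Tap1, which forms the peptide transporter with Tap2, shared a bin with H2-DMb1 that went from -0.46 ± 0.03 to -0.58 ± 0.05 (SD, n = 3 each; limma, adjusted p = 0.00605). Tapbp, which tethers class I molecules to that transporter, lies in the first bin of the window with Daxx, a histone chaperone gene. That bin scored -1.04, -1.28 and -1.16 in WT against -0.89, -0.82 and -0.84 in Del8, a rise of 0.31 (limma, SE 0.050, adjusted p = 0.0003). The WT libraries were spread more widely than the Del8 libraries, but none reached them. Toward class III the falls ended: the bins of the butyrophilin-like genes Btnl1, Btnl2, Btnl4 and Btnl6, relatives of T cell co-regulators, did not pass (3 bins, -0.0027 to 0.05).

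The classical class I genes, which present peptides in nearly all cells, sit at both ends of the class II and class III stretch. The bin of H2-K1, shared with Rps18 and Vps52, scored -1.36, -1.35 and -1.29 in WT against -1.28, -1.22 and -1.25 in Del8. The groups did not overlap, though the gap was small, at 0.08 (limma, SE 0.030, adjusted p = 0.0326). This call was lost in 7 of 12 alternatives, with a difference of 0.04 (limma, adjusted p = 0.366) without WT replicates 1 and 2. The transcription start of H2-K1 lies in the next bin, of Ring1, which went the other way (limma, difference -0.18, adjusted p = 0.00198). The bin of H2-D1 scored -0.76, -0.88 and -0.78 in WT against -0.73, -0.74 and -0.82 in Del8. The groups overlapped there (limma, difference 0.04, adjusted p = 0.343), whereas with a 250 kb square the same bin was higher in Del8 by 0.23 (limma, adjusted p = 0.0013).

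Class I genes of the Q group, the non-classical genes next to H2-D1, fell in 2 of 3 scored bins, where 30.3% of all scored bins were lower. The bin of H2-Q1 and H2-Q2 scored -0.61, -0.68 and -0.60 in WT against -0.79, -0.77 and -0.86 in Del8. The bin of H2-Q4 had the second largest fall of the region, from -0.51 ± 0.05 to -0.70 ± 0.06 (SD, n = 3 each), which is -0.19 apart (limma, SE 0.036, adjusted p = 0.000967). Both bins kept the groups apart, but neither call held on maps that were not balanced (limma, differences -0.10 and -0.07, adjusted p = 0.0826 and 0.132). The next bin, of H2-Q6 and H2-Q7, did not pass, at -0.63 ± 0.07 and -0.61 ± 0.05.

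The T group, which includes H2-T23, the counterpart of human HLA-E read by natural killer cells, was split. The bin of H2-T24, H2-T23 and H2-T22, beside the middle block, scored -0.52, -0.61 and -0.59 in WT against -0.32, -0.35 and -0.26 in Del8. It rose by 0.26 (limma, SE 0.034, adjusted p = 7.53e-05) with no overlap. H2-T3, which codes for the thymus leukaemia antigen of the gut, lay 150 kb further on in a bin that was lower, at a difference of -0.11 (limma, adjusted p = 0.0313), where the groups overlapped. Of the M10 genes, known from the vomeronasal organ, H2-M10.2 lay in a bin that fell and H2-M10.1, H2-M10.3 and H2-M10.4 in bins that did not pass.

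The class III block (34550001 to 35250000), with 57 members, changed little. Of its 14 bins, 2 were higher, none was lower, and the median difference was 0.04. Among all scored bins, 32.4% were higher and 30.3% lower. The complement genes C2 and Cfb, which code for the protease components of the classical and the alternative convertase, lie with Nelfe, Zbtb12 and Ehmt2 in a bin that rose from -0.57 ± 0.07 to -0.44 ± 0.03 (SD, n = 3 each; limma, adjusted p = 0.00995). The bin of C4b, a further complement gene, did not pass: its scores were -0.0028, 0.09 and 0.11 in WT against 0.12, 0.12 and 0.11 in Del8. None of the 3 tumour necrosis factor genes lay in a bin past the threshold. At the bin of Tnf and Ltb the means were -0.52 ± 0.04 in both groups, with a difference of -0.00029 (limma, adjusted p = 0.994), and its 6 libraries were interleaved. The transcription start of Tnf lies in the next bin, of Lta, which did not pass either (limma, difference 0.10, adjusted p = 0.0537). The 3 heat shock genes of the Hspa1 family and the 6 Ly6 genes, which code for small surface proteins, likewise lay in bins that did not pass.

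Genes outside immunity were counted by their own lists. Of 15 genes of RNA processing and translation, 11 lay in bins that rose, 1 in a bin that fell (Rpp21, of ribonuclease P) and 3 in bins that did not pass. By bins, 7 of 11 were higher and 1 lower, where 32.4% of all scored bins were higher and 30.3% lower. That list holds Mrps18b, Ppp1r10, Dhx16, Abcf1, Prr3, Gnl1 and Vars2 of the middle block, so its count and that block's rise are the same values. Of 13 genes of chromatin and transcription, 8 lay in bins that rose and 3 in bins that fell (5 of 9 bins higher, 2 lower). The 3 were Brd2, Ring1, of a Polycomb complex, and Rxrb, a nuclear receptor. Of the 8, Tcf19, Gtf2h4 and Mdc1 lie in the middle block and count its rise again. Of 8 genes of skin and epithelium, 6 lay in bins that rose, among them Cdsn, which codes for corneodesmosin (4 of 6 bins higher, 1 lower). All 6 (Cchcr1, Psors1c2, Cdsn, 2300002M23Rik, Sfta2 and Ddr1) lie in the middle block, so their count is that block's rise again. The 1 in a bin that fell was Col11a2, a collagen gene that shares a bin with Ring1 and Rxrb. That shared bin scored -1.32, -1.32 and -1.19 in WT against -1.49, -1.42 and -1.46 in Del8 (limma, difference -0.18, adjusted p = 0.00198), and the call was lost without balancing (adjusted p = 0.0838).

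**Figure D2:**
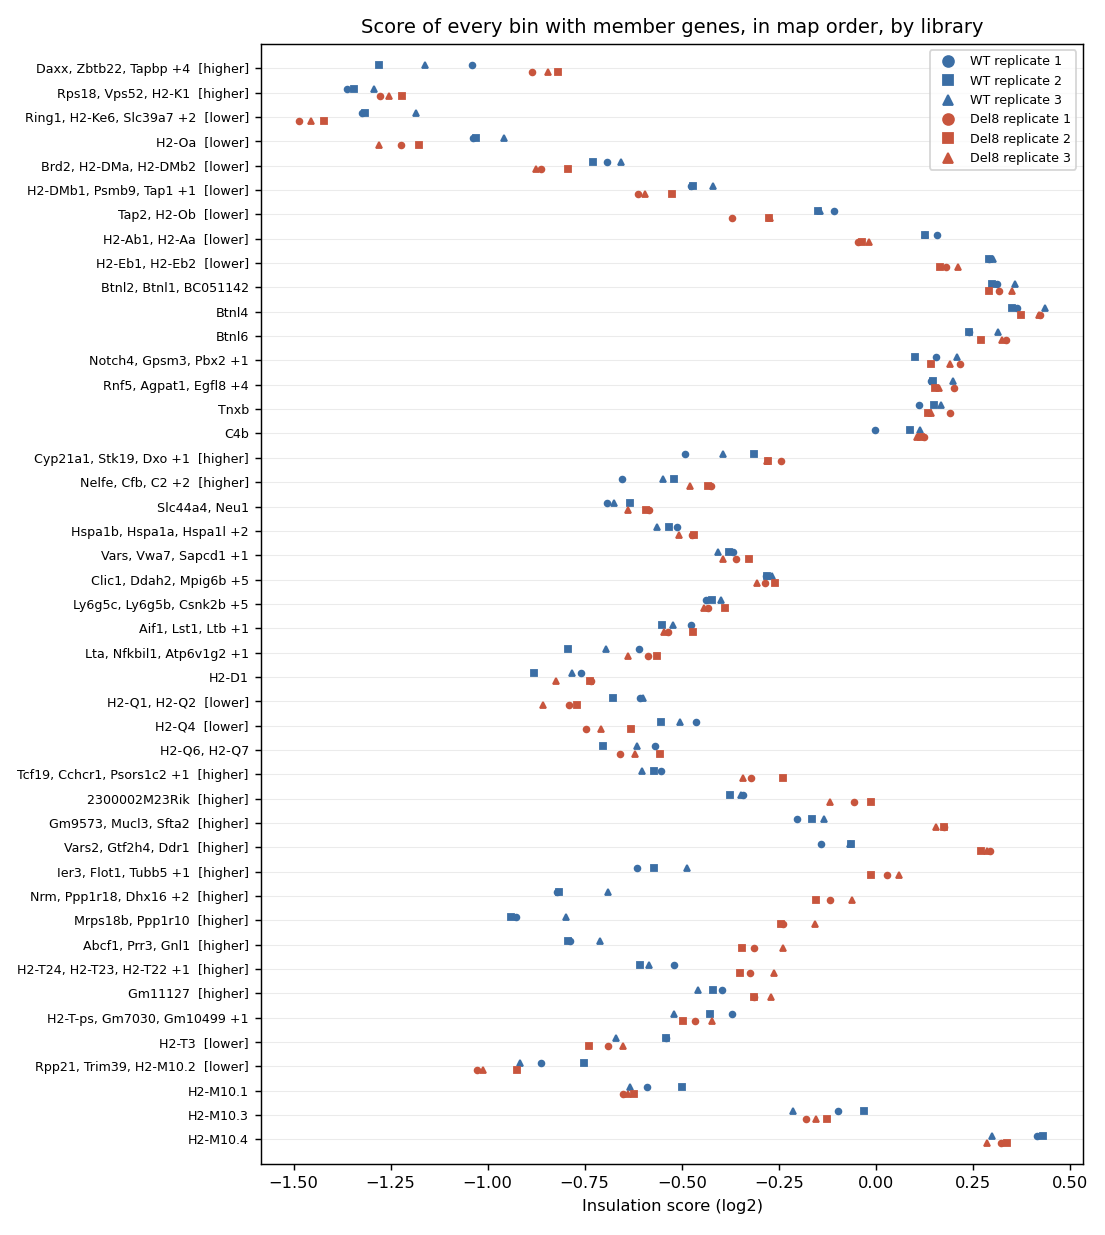
Insulation score (log2, horizontal axis) of the 45 scored bins with a member gene, in map order from top to bottom, 1 point per library (blue, WT; red, Del8; the shape gives the replicate). Labels name up to 3 genes of the bin and the number of others, with the call where the bin passed. The groups stand furthest apart at the bins of Nrm and of Mrps18b, where the score rises by 0.67 and 0.68.

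Borders were called as local minima of the score with a prominence of 0.2 or more. Each WT library had the same 5 in the window, at the bins of H2-K1, of Slc44a4 and Neu1, of H2-D1, of Mrps18b and Ppp1r10, and of Rpp21, Trim39 and H2-M10.2. Each Del8 library had 4. None of these was at the Mrps18b bin, where the prominence in WT replicates 1 to 3 had been 1.29, 1.29 and 0.34. The border at Slc44a4, a choline transporter gene, and Neu1, a sialidase gene, stayed in the same bin in all 6 libraries, with a prominence of 0.35 to 0.41 in WT and 0.30 to 0.33 in Del8. The border at Rpp21 also stayed, and its score went from -0.84 ± 0.08 to -0.99 ± 0.06 (SD, n = 3 each; limma, adjusted p = 0.0124). This call was lost in 4 of 12 alternatives, with a difference of -0.07 (limma, adjusted p = 0.191) without WT replicates 1 and 2 and of -0.13 (limma, adjusted p = 0.0517) without Del8 replicate 1.

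A pair of borders lay 1 bin further along in every Del8 library. The one at H2-K1 was called at the next bin, of Ring1, and the one at H2-D1 at the bin of H2-Q1 and H2-Q2. At the border near H2-K1 the score of the H2-K1 bin rose while that of the Ring1 bin, which holds the H2-K1 transcription start, fell. At H2-D1, the H2-D1 bin did not pass and the H2-Q1 bin fell. Each shift is 50 kb, the size of a bin, and finer positions cannot be read from these counts.

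Boundary strength, the mean score at borders minus that 250 kb to either side, depended on which borders entered. For the 4 borders called on the map summed over all libraries, it was -0.70, -0.66 and -0.64 in WT against -0.79, -0.78 and -0.82 in Del8. These borders were thus deeper in Del8, by -0.13, with no overlap (exact permutation test over the libraries, two-sided, p = 0.10). With 3 against 3 libraries no smaller p is possible. Each Del8 library holds more contacts than any WT library, so the summed map leans to Del8. It has no border at Mrps18b and sets that near H2-K1 at the Ring1 bin, as in Del8. The border at H2-D1 stands at its WT bin. The choice of borders can thus favour Del8. For the 5 borders of the WT mean map, which include Mrps18b, the difference was 0.08 in the other direction, from -0.66 ± 0.03 to -0.59 ± 0.02 (SD, n = 3 each). For the 4 borders of the Del8 mean map it was -0.18. Both choices of borders were added after the data were seen. Borders picked on the map of 1 group tend to be deep in that group. Neither difference can therefore tell which group has the deeper borders. With a 250 kb square, for which 6 borders were called on the summed map, the difference was -0.0056 (exact permutation test, p = 0.90), with overlap between the groups.

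Contact between the gene blocks was then read from balanced contact over the mean of chromosome 17 at the same distance, where 1 is the chromosome's mean. Between the D and Q block and the middle block it was 0.769, 0.786 and 0.790 in WT against 1.02, 1.08 and 1.05 in Del8. Pairs that were depleted in WT were thus at about the chromosome's mean in Del8, a 1.34-fold level. Between the middle block and the T block it was 0.540, 0.516 and 0.536 in WT against 0.707, 0.696 and 0.735 in Del8, also 1.34-fold. Within the middle block it went from 1.05 ± 0.02 to 1.16 ± 0.03 (SD, n = 3 each). In none of these did a WT library reach a Del8 library.

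Other blocks had less contact in Del8. Inside the D and Q block it went from 1.33 ± 0.02 to 1.09 ± 0.01 (SD, n = 3 each), and from the K block, with H2-K1, to class II from 0.541 ± 0.070 to 0.437 ± 0.0050. Inside class II the change was small, from 1.13 ± 0.0081 to 1.09 ± 0.02, and inside T it was from 0.786 ± 0.0097 to 0.750 ± 0.0011. Contact from class II to class III and from class III to D and Q was higher in Del8, at 1.05-fold and 1.11-fold. Of the 11 values for blocks and neighbouring blocks, 10 had no overlap between groups (exact permutation test, two-sided, p = 0.10 and adjusted p = 0.11 over the 11), and class III itself overlapped (p = 0.30). Groups without overlap were common elsewhere too, at 67.0% of all scored bins. A share for blocks outside the window was not computed. No value of this kind can pass 0.05 with 3 libraries against 3.

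The D and Q block and the T block, which hold most of the non-classical class I genes and lie on either side of the middle block, were in contact more often in Del8. They shared 65, 62 and 110 contacts in WT against 335, 238 and 202 in Del8. Relative to the chromosome's mean this was 0.366, 0.317 and 0.442 in WT against 0.675, 0.687 and 0.658 in Del8. The level was thus 1.80-fold in Del8 and still below the chromosome's mean, with no overlap. This pair of blocks was picked after its values were seen, and no test was run on it. Of the 10 pairs of blocks that are not neighbours, 5 others had no overlap between groups, and in all 5 contact was lower in Del8. These were K with class III (0.735-fold), K with the middle block (0.577-fold), class II with D and Q (0.732-fold), class II with the middle block (0.829-fold) and class III with the middle block (0.857-fold). In the other 4 the groups overlapped. Here too, no share for blocks outside the window was computed.

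**Figure D3:**
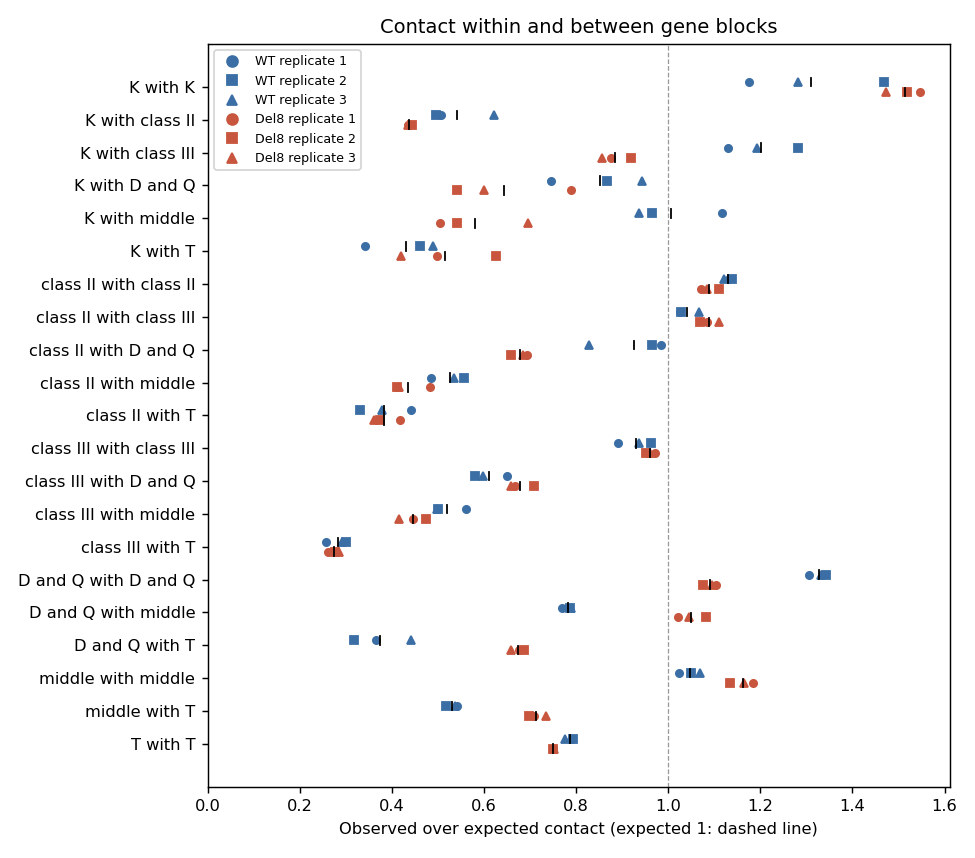
Contact within and between the 6 gene blocks, as observed over expected at the same distance on chromosome 17 (1 is the chromosome's mean, dashed line), 1 point per library (blue, WT; red, Del8) with a black tick at each group's mean. The largest ratio is at D and Q with T, from a mean of 0.375 to 0.673.

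Single pairs of bins were tested on the deposited counts with edgeR's quasi-likelihood test, relative to the count expected at their distance in that library. Levels of single pairs given below are instead balanced contact over the chromosome's mean at that distance, as for the blocks. Of 1275 pairs of usable window bins, 541 reached a mean count of 10 and were tested, and 734 were too sparse. At an adjusted p under 0.05, 19 pairs (3.51%) were higher in Del8 and 2 (0.370%) lower. Of all 333966 pairs tested on the autosomes, 0.871% were higher and 0.876% lower. For 4 of the 19 pairs the WT mean was itself under the minimum, so they entered through their high Del8 counts. These 4 are the largest rises, given below. The median log2 fold change of window pairs was 0.07, against -0.01 over all pairs. The number of higher pairs fell to between 5 and 16 without any single library, and to 2 with DESeq2 on chromosome 17. Over all autosomal pairs it fell too, from 2910 to between 1061 and 2254 without any single library. DESeq2 called 22 of the 13209 pairs of chromosome 17 higher. The loss of calls was thus not particular to this window.

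Pairs that span the border bin of Mrps18b and Ppp1r10 were counted apart. Of 51 such pairs tested, 9 were higher, none was lower and 49 had a fold change above 0, with a median of 0.72 on the log2 scale. Of the 472 pairs that neither span it nor end in it, 10 were higher and 2 lower, with a median of 0.03. The 4 pairs admitted through their Del8 counts are among the 9, and the count minimum favours rises among sparse pairs, so these numbers are a description. Of the 18 pairs that end in the border bin itself, edgeR called none. Spanning pairs also enter the insulation score of that bin, so these counts and its rise rest on the same contacts.

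The largest rise, in a pair with a WT mean under the minimum, joined the bin of Vars2, Gtf2h4 and Ddr1 to that of H2-T3, 500 kb away across the border. It had 2, 3 and 8 contacts in WT against 33, 29 and 29 in Del8. Relative to the chromosome's mean, balanced contact was 0.152, 0.192 and 0.410 in WT against 0.839, 1.06 and 1.35 in Del8. WT libraries thus had well under the usual contact at this distance, and Del8 libraries about the usual one. The log2 fold change was 1.96 (edgeR, SE 0.417, adjusted p = 0.00254). Without WT replicates 1 and 2 it was 1.33 (edgeR, adjusted p = 0.278).

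The next largest rise was also in a pair with a WT mean under the minimum. It joined the bin of Ier3, Flot1, Tubb5 and Mdc1 to that of Gm11127, a class I-like gene, 250 kb apart. Its contacts were 3, 3 and 15 in WT against 39, 25 and 38 in Del8 (edgeR, log2 fold change 1.58, SE 0.368, adjusted p = 0.00732). WT replicate 3 stood well above the other WT libraries, and the call was lost without WT replicate 1, WT replicate 2 or Del8 replicate 3. The log2 fold change was 0.67 without WT replicates 1 and 2 (edgeR, adjusted p = 0.589) and 2.66 without WT replicate 3. The other 3 of the 5 largest rises also join the middle block to the T block. The bin of Gm9573, Mucl3 and Sfta2 with that of H2-T3 had 7, 4 and 11 contacts in WT against 36, 27 and 31 in Del8. The bin of Nrm with that of Rpp21 and Trim39 had 8, 7 and 12 in WT against 47, 35 and 28 in Del8. The third, from a bin with no member start to that of Gm8909, had 5, 3 and 10 in WT against 37, 20 and 25 in Del8. Adjusted p-values of these 3 ran from 0.0258 to 0.0402 (edgeR), and each call was lost in 9 alternatives. The pairs of Gm9573 and of Gm8909 also had a WT mean under the minimum and entered through their Del8 counts.

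Further rises involved the Q genes. The bin of H2-Q6 and H2-Q7 had more contact with that of Ier3, Flot1, Tubb5 and Mdc1, at 12, 15 and 16 contacts in WT against 74, 43 and 35 in Del8 (edgeR, log2 fold change 1.01, SE 0.273, adjusted p = 0.0278). On the balanced maps this contact went from 1.00 ± 0.10 to 1.72 ± 0.16 of the chromosome's mean (SD, n = 3 each). The WT counts were below those expected for their libraries, which were 15.9, 16.5 and 21.1. The bin of H2-Q1 and H2-Q2 gained contact with those of Tnf and Lta in class III, at log2 fold changes of 0.64 and 0.70 (edgeR, adjusted p = 0.0424 and 0.0053). These pairs span the H2-D1 bin, where the WT border lay.

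Both pairs that fell lay inside class II. The bin of H2-DMb1, Psmb9, Tap1 and Psmb8 and that of Btnl2 and Btnl1, 200 kb apart, shared 83, 82 and 107 contacts in WT against 103, 77 and 89 in Del8. The counts expected at this distance were 32.35, 34.2 and 41.5 in WT and 75.4, 52.2 and 45.7 in Del8. Balanced contact relative to the chromosome's mean was 2.01, 1.72 and 1.75 in WT against 1.00, 1.08 and 1.54 in Del8. A contact well above the chromosome's mean in WT was thus lower in every Del8 library (edgeR, log2 fold change -0.68, SE 0.149, adjusted p = 0.00344). The call was lost without Del8 replicate 1 (edgeR, adjusted p = 0.09) and without WT replicates 1 and 2 (adjusted p = 0.0747). The second joined the Ring1 bin to a bin with no member start, at 25, 23 and 28 contacts in WT against 32, 22 and 12 in Del8 (edgeR, 0.50-fold, adjusted p = 0.0432), and was lost in 11 of 13 alternatives.

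**Figure D4:**
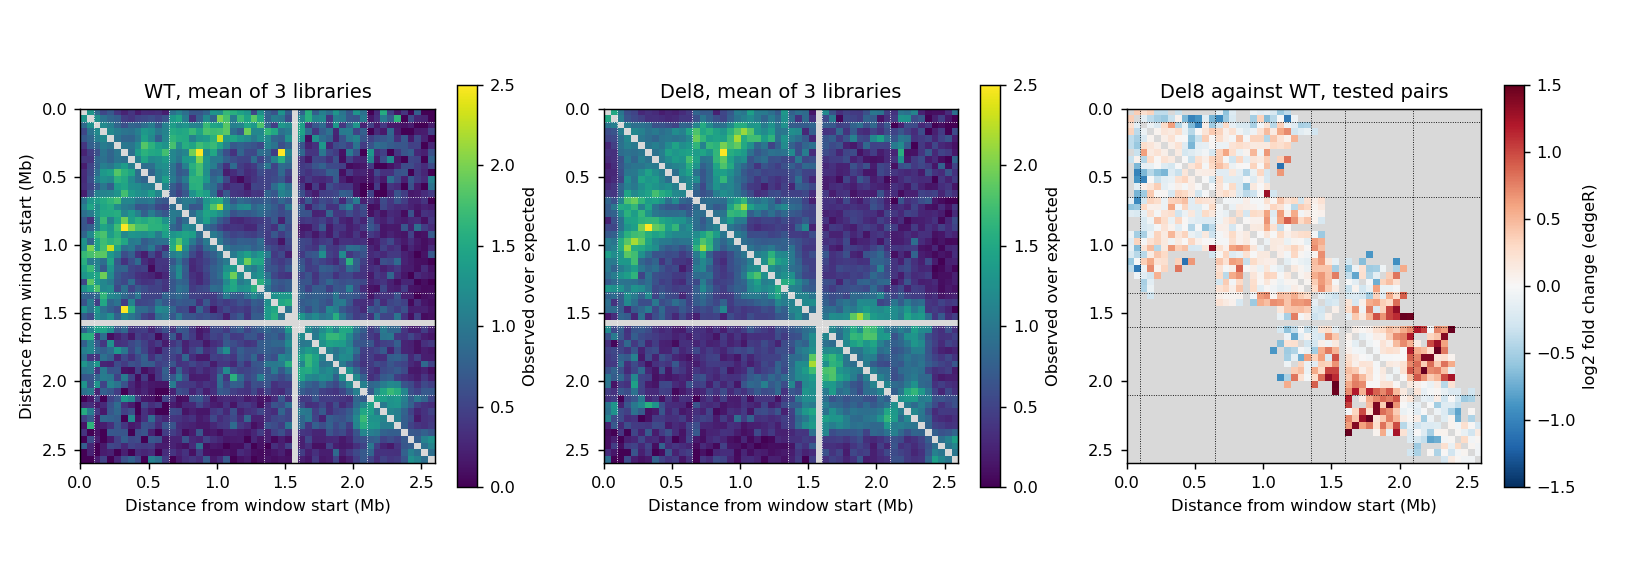
Contact of every pair of window bins, with both axes in Mb from the start of the window and dotted lines between gene blocks. The left and middle panels give observed over expected contact (mean of 3 libraries each), and the right panel the edgeR log2 fold change of the 541 tested pairs (grey, too sparse or not usable). Of the 19 higher pairs, 6 lie between the middle block and T, 3 between D and Q and the middle block, 4 within the middle block, 3 between class III and D and Q, 2 within class III and 1 in K.

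Contacts between 7 marker genes of the blocks (H2-K1, H2-Ab1, C4b, Tnf, H2-D1, H2-Q7 and H2-T23) gave 21 pairs, of which 7 reached the count minimum. None of the 7 passed (edgeR). The closest was Tnf with H2-D1, at 78, 82 and 121 contacts in WT against 236, 166 and 164 in Del8 (edgeR, log2 fold change 0.37, SE 0.126, adjusted p = 0.10). On the balanced maps its groups did not overlap, at 1.16 ± 0.13 and 1.51 ± 0.13 of the chromosome's mean (SD, n = 3 each). H2-D1 with H2-Q7 had 40, 43 and 62 contacts in WT against 94, 56 and 36 in Del8, and also did not pass (edgeR, adjusted p = 0.474). Its balanced contact was 1.35 ± 0.11 and 0.967 ± 0.20 of the chromosome's mean. H2-K1 with H2-Ab1 overlapped, at 0.388 ± 0.096 and 0.361 ± 0.097.

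The remaining 14 pairs were too sparse for a test. H2-Q7 with H2-T23, 600 kb apart across the middle block, had 2 contacts in each WT library and 16, 13 and 13 in Del8. The counts expected at this distance were 9.11, 9.44 and 12.7 in WT and 24.5, 17.2 and 15.1 in Del8. Every library lay below its expected count. Balanced contact relative to the chromosome's mean was 0.410, 0.378 and 0.265 in WT against 1.05, 1.28 and 1.31 in Del8, with no overlap. H2-D1 with H2-T23 had 2, 0 and 1 contacts in WT against 7, 7 and 6 in Del8. Counts this small carry wide counting error, and neither pair is called changed.

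Over the whole window, contact at 100 to 450 kb stood at 0.886 ± 0.010 of the chromosome's mean for WT, against 0.930 ± 0.0026 for Del8 (SD, n = 3 each). At 500 kb to 2.5 Mb it was 0.574 ± 0.0019 and 0.559 ± 0.0062. Neither pair of groups overlapped (exact permutation test, two-sided, p = 0.10 each). The share of the window's contacts between bins that fell at 500 kb to under 2 Mb was 14.1%, 14.0% and 14.4% in WT against 16.8%, 17.01% and 16.9% in Del8. On all of chromosome 17 it went from 19.1% ± 0.56 to 21.6% ± 0.094. The window's share at 2 to under 10 Mb went from 16.0% ± 1.2 to 13.6% ± 0.44. Contacts that stayed inside the window were 52.1% ± 2.4 in WT and 55.5% ± 1.0 in Del8. Each of these shares of the window had p = 0.10 (exact permutation test, adjusted p = 0.175 over 7 shares). The share within 1 bin was 32.8%, 32.4% and 24.7% in WT against 29.1%, 28.3% and 28.7% in Del8, so the groups overlapped and WT replicate 3 stood below every other library.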

How the data were processed

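The authors deposited raw contact counts per pair of 50 kb bins, 1 file per library, with mm10 as the build per the submitters' processing notes. The aligner is not given in the sources used here, nor is any filter on read pairs. Gene starts and promoters are RefSeq's (GRCm38.p6).

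A bin was usable if its coverage, scaled to the 75th percentile of bins, was at least 0.5 of the third highest library and above 0.1 of the library's own scale in every library. Each chromosome's map of usable bins was balanced by iterative correction, without its diagonal, and a score needed 50% of its square usable. Scores were tested with limma 3.58.1 and counts of pairs up to 2.5 Mb apart with edgeR 4.0.16 (offsets from the expected count of the library, chromosome and distance; mean count of at least 10), each with Benjamini-Hochberg adjustment over all bins or pairs. DESeq2 1.42.0 was an alternative. Tests were checked on simulated data. For values of which a library has 1, the exact permutation test was used.

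Values were given for 7 marker genes and their 21 pairs, every border bin, and the 5 largest rises and falls among member bins and window pairs. Further genes and pairs were named after their values were seen, as examples of their list or block. Members, lists and this rule were chosen with earlier results of these data known. Samples were grouped by their labels. P-values measure the spread between these libraries.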

Additional observations from a re-analysis of the deposited data

How the results depend on the processing

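Insulation scores were refitted under 12 alternatives. Without any single library, 13 to 14 member bins were higher and 9 to 14 lower, and without WT replicates 1 and 2 together 13 and 9. That fit leaves a single WT library, which is assumed to vary like the Del8 libraries. With partly lost bins kept, limma called 0 of all 36079 scored bins. Keeping these bins gave 0 higher and 0 lower member bins (limma, 16 and 1 at an unadjusted p under 0.05). It turned the sign at 9 of the 11 member bins that fell, among them all 7 of class II: Ring1 (0.15), H2-Oa (0.0655), H2-DMa (0.16), H2-DMb1 (0.12), Tap2 (0.20), H2-Ab1 (0.11) and H2-Eb1 (0.21), as well as Rpp21 (1.75) and H2-T3. Of the 14 member bins that rose, it turned none. Without balancing, 3 member bins fell, where 6283 of all 22083 scored bins were lower. With a 250 kb square the Tnf bin rose by 0.14 (limma, adjusted p = 0.0165) and the H2-D1 bin by 0.23 (limma, adjusted p = 0.0013). The replicate numbers of the labels did not pair the samples (correlations of deviations -0.04, -0.02 and -0.09 for replicates 1, 2 and 3), and with the replicate block the counts were 14 and 11.

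Counts of pairs were less stable. Without any single library, 5 to 16 were higher and 0 to 2 lower. The 0 came without Del8 replicate 1 (edgeR; 25 lower at an unadjusted p under 0.05). Without WT replicates 1 and 2, 2 were higher and 1 lower. With a minimum of 5, 1 was lower. With no minimum, 9 were higher and 1 lower. With TMM factors 1 was lower, with 100 kb bins 5 were lower (and 23 higher), and DESeq2 gave 2 higher and 1 lower. With the replicate block the pairs numbered 15 and 2. Low counts limit these calls: 734 pairs were too sparse to test.

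Among single values, the share within 1 bin differed by -3.85 to 0.19 percentage points without single libraries, and turned to 0.19 and 0.0018 without WT replicates 1 and 2 in turn. The window's share of chromosome 17, 6.86% in WT and 6.89% in Del8, differed by -0.10 to 0.13 without single libraries, and by -0.60 with all bins kept. Keeping partly lost bins turned the difference at 500 kb to 2.5 Mb to 0.16, that of class III to -0.0293, of class III with D and Q to -0.16 and of T to 0.40. Borders of the WT map turned the difference in boundary strength to 0.0755. In 188 other refits of counts, shares and block values, the result kept its direction and its side of the threshold, or its count stayed within 1.5 times. The causes were not tested.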
